A study of Rattus norvegicus with 18 samples.

Results

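Cdkn1a, Gadd45a, Plk2, Mdm2, Ccng1, Fas, Btg2 and Sesn2 are genes that the transcription factor p53 is known to switch on when cells are stressed. They were taken by gene symbol, 8 genes of the 32545 in the deposited expression table, and all 8 passed the filter on low values. The cells were H9C2, an established line of rat myoblasts derived from embryonic heart ventricle, which the labels call myocardium. RNA was compared in 18 libraries, 3 in each of 6 groups. NC cells had no treatment. ES10 and ES50 cells received 10 or 50 electric pulses of 1500 V/cm, each lasting 100 µs. P cells had 50 µmol/L of an agent the labels abbreviate as PE, given for 48 h, and P_ES10 and P_ES50 cells had the same PE exposure and then 10 or 50 of those pulses. How long after the pulses RNA was harvested is not stated in the labels. The replicates are only numbered, so the p-values measure the spread between these libraries, which may be technical.

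In unstressed cells p53 is held low by the ubiquitin ligase Mdm2. DNA damage, starvation or loss of ribosome function lets p53 accumulate and bind paired 10-base elements near its targets, which include Mdm2 itself, so the circuit contains its own brake. The targets described here halt the cell cycle (Cdkn1a, Gadd45a, Btg2), act in stress signalling and centriole biology (Plk2), restrain p53 (Mdm2, Ccng1), sensitise cells to death ligands (Fas) or damp growth signalling (Sesn2). Several of them also respond to other stress pathways that do not need p53.

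Promoter windows show where a p53-like element lies close to these genes. RefSeq windows on the GRCr8 rat assembly, running from 250 bases before to 50 bases after each gene's start, were found for all 8 genes. Both strands were searched for a pair of the 10-base elements of the p53 consensus, with a spacer of at most 13 bases, at most 2 mismatches and the core C and G of each element intact. Such a pair was present in 3 of the 8 windows, those of Cdkn1a, Gadd45a and Ccng1, and in 3.53% of all 33469 windows. An exact 10-base element was present in the same 3 windows and in 7.98% of all windows. The 3 windows are printed 5′ to 3′ on the strand of the gene, with the best-matching pair in capitals. They include that of Ccng1, which moved apart from the other 7 after 50 pulses without PE on the deposited scale. Cdkn1a and Gadd45a hold such a pair too and fell there. Cdkn1a lies at chr20:7150682-7150981 on the plus strand, Gadd45a at chr4:97486750-97487049 on the minus strand and Ccng1 at chr10:25684827-25685126 on the minus strand.
Cdkn1a: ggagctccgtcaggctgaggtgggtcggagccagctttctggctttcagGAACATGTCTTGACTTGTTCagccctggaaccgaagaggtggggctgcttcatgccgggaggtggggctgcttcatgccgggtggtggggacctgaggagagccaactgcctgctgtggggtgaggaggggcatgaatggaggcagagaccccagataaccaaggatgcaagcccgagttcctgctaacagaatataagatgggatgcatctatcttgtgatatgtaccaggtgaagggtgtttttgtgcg
Gadd45a: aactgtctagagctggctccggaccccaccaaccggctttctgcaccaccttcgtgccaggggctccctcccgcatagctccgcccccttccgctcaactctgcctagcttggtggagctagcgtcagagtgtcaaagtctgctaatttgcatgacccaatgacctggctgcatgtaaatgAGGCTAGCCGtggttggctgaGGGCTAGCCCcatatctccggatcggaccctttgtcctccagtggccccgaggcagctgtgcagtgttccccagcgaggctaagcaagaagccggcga
Ccng1: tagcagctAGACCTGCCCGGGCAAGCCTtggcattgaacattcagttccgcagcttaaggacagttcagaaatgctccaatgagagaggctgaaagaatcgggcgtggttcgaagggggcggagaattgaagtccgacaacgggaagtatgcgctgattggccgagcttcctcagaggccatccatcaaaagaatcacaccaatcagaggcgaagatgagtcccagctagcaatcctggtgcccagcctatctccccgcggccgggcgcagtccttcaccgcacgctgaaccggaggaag
The Cdkn1a pair spans bases 50 to 69 of its window and the Ccng1 pair bases 9 to 28, each with no spacer and 1 mismatch. The Gadd45a pair spans bases 182 to 212, with a spacer of 11 bases, printed in lower case, and 1 mismatch. The windows of Plk2, Mdm2, Fas, Btg2 and Sesn2 held no such pair, which says only that these letters are not in those windows. A match describes the letters and not binding.

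Levels are given as FPKM, read fragments scaled to gene length and library, as deposited. The values convert to between 14004929 and 17247201 whole reads on genes per library. Reads on the 37 mitochondrial genes took 91.4% to 92.9% of these in ES50, 46.7% to 49.6% in P_ES50 and 5.41% to 14.0% in the other 12 libraries. Outside the mitochondrial genome 1230554 to 1466851 reads remained in each ES50 library, 7813779 to 8060502 in each P_ES50 library and 12059244 to 14665855 in the rest. On the deposited scale the median log2 change over all tested genes lay between -0.13 and 0.09 in the 11 comparisons, and each change described here is on that scale. Scaling to total reads instead moved this median from -0.13 to -2.43 in ES50 versus NC, a shift of -2.30, and from -0.01 to -0.77 in P_ES50 versus P, a shift of -0.76. Scaling to reads outside the mitochondrial genome shifted it by -0.09 and -0.02 in the same order. In bulk RNA, fewer cells of a type and less RNA per cell cannot be told apart. Of 11 cardiac muscle markers, 7 were below the filter, among them Myh6, Myh7, Actn2 and Nkx2-5. The 4 that passed were Tnnt2, at 12.1 FPKM in NC and 40.2 in ES50, and Tnni3, Nppb and Gata4, each at no more than 3.59 in any group. The summed cardiac level was 18.2 to 19.2 FPKM in NC, 39.5 to 50.5 in ES50 and 12.6 to 20.4 in the other groups. Of 7 skeletal myoblast markers 4 passed (Myf5, Chrna1 and Myh3 did not), and 1, Myod1, was called in ES10 versus NC, at 32.02 and 60.2 FPKM, while the median of the 4 was -0.09. All 4 were higher in ES50 versus NC (median 0.84). In P_ES10 versus P, Myod1 alone was called, going from 23.4 to 56.5 FPKM. In ES50 versus NC the 4 smooth muscle markers were all higher (median 1.19, summed levels 5420 to 5647 against 2158 to 2349 FPKM) and 5 of 6 fibroblast markers were lower (median -1.61, summed levels 1728 to 1761 against 3445 to 3568 FPKM). In P_ES50 versus P, 3 of the 4 smooth muscle markers were higher, and 1 of the 6 fibroblast markers was higher and 5 were lower. The part of the mitochondrial share and of these markers in the results that follow was not tested.

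**Figure D1:**
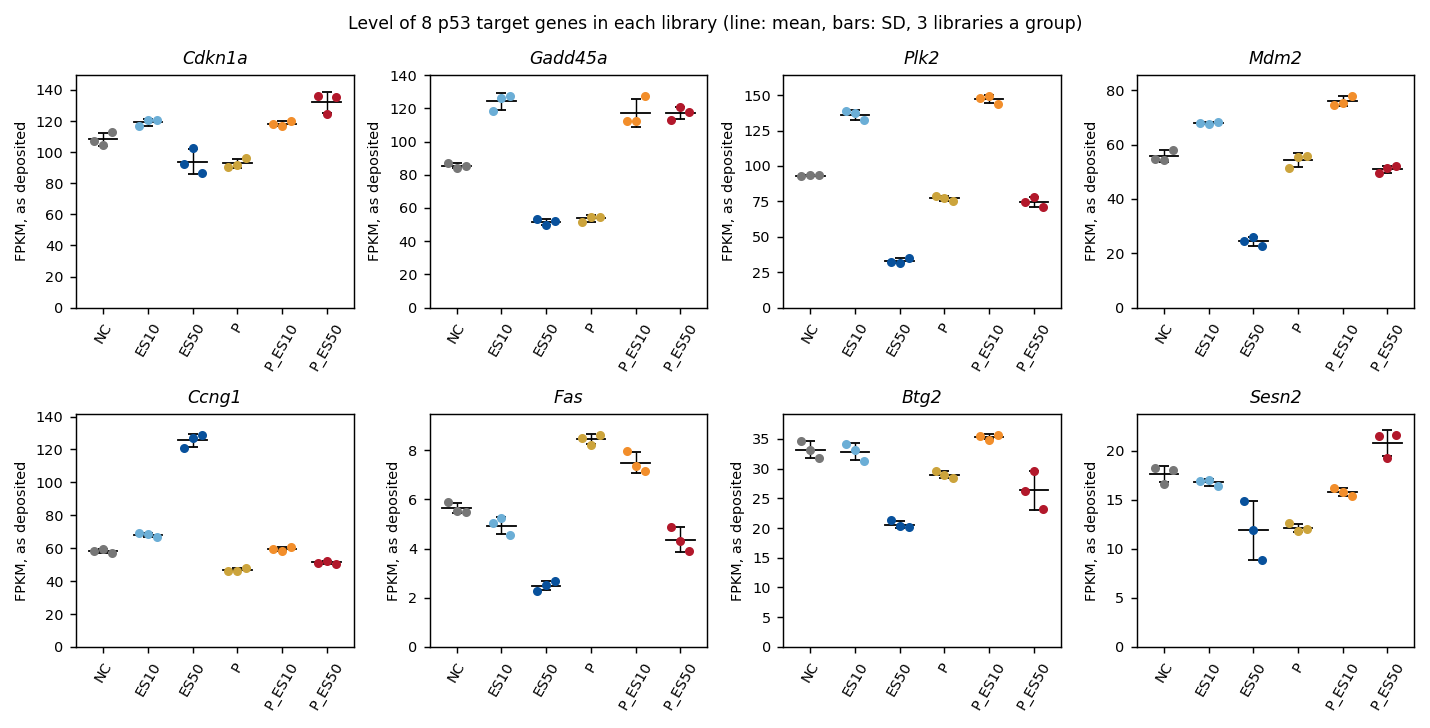
FPKM of each of the 8 genes (vertical axes, linear from 0) in the 18 libraries by group (horizontal axes), with points for libraries, lines for group means and bars for SD over 3 libraries. Plk2 ranges from a mean of 33.2 FPKM in ES50 to 147 in P_ES10, and Ccng1 is highest in ES50 at 126 FPKM, where scaling to total reads puts it below NC.

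The 8 genes did not answer the treatments as a block. After 10 pulses Plk2, Gadd45a, Mdm2 and Ccng1 rose and none of the 8 fell, at a background of 6.36% of the 11917 tested genes higher and 2.21% lower. After PE followed by 10 pulses, 7 of the 8 rose over PE alone, all but Fas, where 13.2% of tested genes were higher and 9.66% lower. After 50 pulses without PE, 7 fell and Ccng1 rose, among 40.1% of tested genes lower and 31.9% higher, a share so large that the count by itself says little about these genes. After PE followed by 50 pulses, Gadd45a, Sesn2, Cdkn1a and Ccng1 were higher than with PE alone and Fas was lower, where 14.1% of tested genes were higher and 14.2% lower. PE alone lowered 5 of the 8 (Gadd45a, Sesn2, Ccng1, Plk2 and Cdkn1a) and raised Fas, where 4.81% of tested genes were lower and 4.72% higher. A change counts as called when the adjusted p of limma's moderated test is under 0.05.

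The median log2 change of the 8 genes was 0.18 in ES10 versus NC and 0.35 in P_ES10 versus P, beside medians over all tested genes of 0.02 and 0.00. It was -0.69 in ES50 versus NC, beside -0.13 for all tested genes, and 0.04 in P_ES50 versus P, beside -0.01. With PE alone it was -0.24, beside 0.00. Scaling to reads outside the mitochondrial genome changed the balance over all tested genes, from 758 higher and 263 lower to 356 and 620 in ES10 versus NC and from 1573 and 1151 to 1077 and 1672 in P_ES10 versus P, where 4 and 6 of the 8 members were then higher and none was lower. In P_ES50 versus P_ES10 it took all tested genes from 1249 higher and 1535 lower to 1650 and 1196, with the members at 2 higher and 5 lower under both. Scaled to total reads, all 8 were lower in ES50 versus NC, 1 was higher and 6 were lower in P_ES50 versus P, 6 were higher and 1 was lower in P_ES10 versus P, and 1 was higher and 3 were lower in P versus NC. Of the 11917 tested genes, 34 were then higher and 11471 lower in ES50 versus NC, and 90 and 10461 in P_ES50 versus P. In P_ES10 versus P 1521 were higher and 2875 lower, and in P versus NC 2431 and 558.

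**Figure D2:**
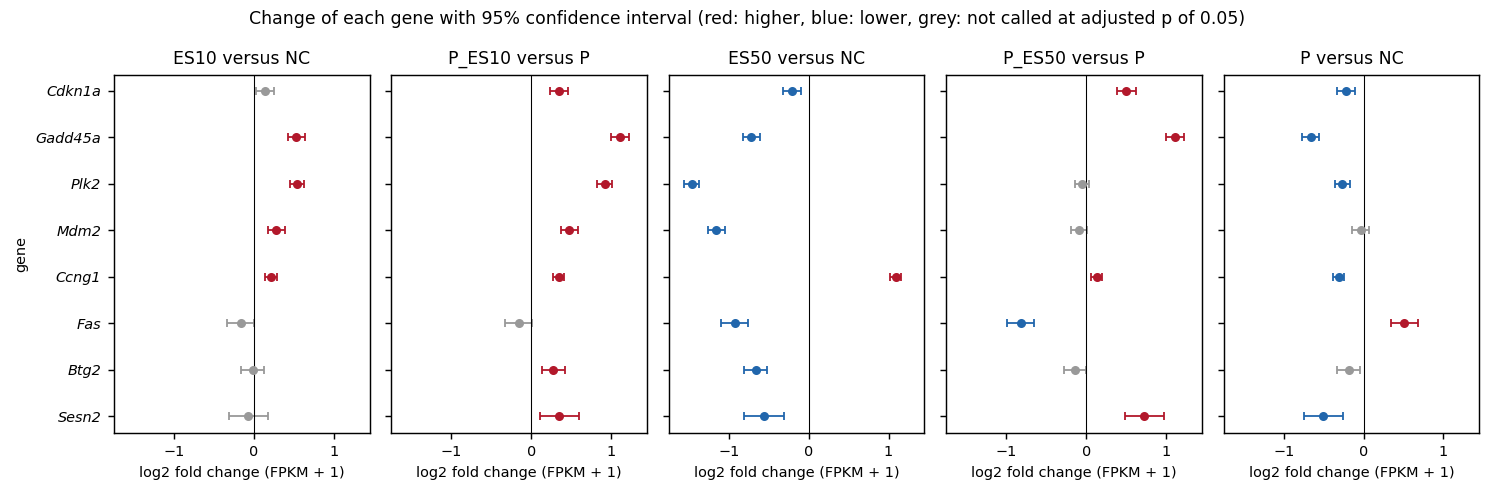
Log2 fold change of FPKM + 1 (horizontal axes) for each gene (vertical axis) in 5 comparisons, with points for the estimate and bars for its 95% confidence interval. Gadd45a and Plk2 lie farthest to the right after 10 pulses, at 0.53 and 0.54 without PE and 1.11 and 0.92 with PE, and in ES50 versus NC only the Ccng1 estimate lies right of 0, at 1.09, against -2.38 when scaled to total reads.

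Cdkn1a encodes p21, the inhibitor of cyclin-dependent kinases that carries most of the p53-driven arrest in G1. The gene, ENSRNOG00000000521, lies on chromosome 20 from 6351458 to 6358864 on the plus strand in Rnor 6.0, the build of the submitters' processing notes and of all gene positions that follow. Its level was 107, 105 and 113 FPKM in the NC libraries and 117, 121 and 121 in the ES10 libraries. These groups do not overlap, yet the rise of 0.14 ± 0.05 (log2 ± SE, n = 3 per group) gave an adjusted p of 0.146. It was called when the ES50 libraries were left out of the fit (adjusted p = 0.0231). Over all tested genes that fit made 2574 calls in place of 1021. Scaled to total reads the rise was 0.099 and was not called (adjusted p = 0.426). In the ES50 libraries the level was 92.2, 102 and 86.6 FPKM, all below NC, a fall of 0.21 ± 0.05 (adjusted p = 0.00243). With PE alone it was 90.6, 91.8 and 96.0 FPKM, again below every NC library, with a log2 change of -0.22 ± 0.05 (adjusted p = 0.0167). That call was lost without NC replicate 3, P replicate 1 or P replicate 2, with adjusted p between 0.0616 and 0.0797.

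Cdkn1a rose over PE alone at both pulse numbers. It measured 118, 117 and 120.1 FPKM in P_ES10 and 136, 124 and 136 in P_ES50, with every library of both groups above every P library. The log2 change was 0.35 ± 0.05 with 10 pulses (adjusted p = 2.29e-04) and 0.50 ± 0.05 with 50 (adjusted p = 5.94e-06), and the second became -0.39 when scaled to total reads. The 6 group means spanned a 1.42-fold range, the narrowest of the 8 genes, and P_ES50 stood highest on the deposited scale. The step from P_ES10 to P_ES50, 0.16 ± 0.05 (adjusted p = 0.0470), was lost without any 1 of 5 of the 6 libraries, all but P_ES50 replicate 2 (adjusted p between 0.0829 and 0.151), and with the replicate numbers as a block (adjusted p = 0.0673). ES10 and P_ES10 means, 119 and 118 FPKM, did not differ beyond their spread (difference -0.01, 95% confidence interval -0.13 to 0.10).

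Gadd45a encodes a small nuclear protein that binds p21 and PCNA, disrupts the Cdk1 and cyclin B1 complex at the G2 to M transition and activates stress kinases. The gene, ENSRNOG00000005615, lies on chromosome 4 from 97782512 to 97784842 on the minus strand. Its level was 87.2, 84.0 and 85.5 FPKM in NC and 118, 127 and 128 in ES10, so that every library with 10 pulses lay above every untreated library. The rise was 0.53 ± 0.05 (adjusted p = 9.36e-06), a call lost with reads thinned to equal depth (0.39, adjusted p = 0.060). PE alone took it the other way, to 51.6, 54.7 and 54.8 FPKM (-0.66 ± 0.05, adjusted p = 8.01e-07), the largest fall among the 8 genes with PE alone. ES50 libraries held a like level of 53.4, 49.6 and 52.1 FPKM, on 147 to 162 reads each, for a log2 change of -0.72 ± 0.05 (adjusted p = 3.69e-09).

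After PE, Gadd45a rose to about the same level with either number of pulses. It was 112, 113 and 127 FPKM in P_ES10 and 113, 121 and 118 in P_ES50. Over PE alone the log2 change was 1.11 ± 0.05 in each (adjusted p = 9.54e-10 and 3.27e-10). The 50-pulse change kept its sign when scaled to total reads, at 0.22 (adjusted p = 0.00244), which made Gadd45a the 1 member still called higher there. P_ES50 and P_ES10 did not differ beyond their spread, with a 95% confidence interval of the log2 difference from -0.11 to 0.11, and neither did P_ES10 and ES10 (-0.19 to 0.02). The order of the group means ran ES10, P_ES10, P_ES50, NC, P and ES50, over a 2.40-fold range.

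Plk2 is a polo-like kinase of centriole duplication and synaptic signalling that p53 and serum both induce. The gene, ENSRNOG00000011951, lies on chromosome 2 from 41911131 to 41916901 on the plus strand. It measured 92.8, 93.3 and 93.4 FPKM in NC, 139, 137 and 132 in ES10 and 32.5, 31.7 and 35.3 in ES50. The 3 groups are far apart, with 10 pulses above and 50 pulses below the untreated level. The changes from NC were 0.54 ± 0.04 (adjusted p = 1.99e-06) and -1.46 ± 0.04 (adjusted p = 1.44e-13), so 50 pulses lay 2.00 below 10 pulses on the log2 scale (SE 0.04, adjusted p = 2.86e-15).

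With PE, the level of Plk2 was 79.0, 77.5 and 75.5 FPKM, below every NC library (-0.27 ± 0.04, adjusted p = 0.00121). It reached 148, 149.6 and 144 FPKM in P_ES10, the highest group of all (0.92 ± 0.04 over PE alone, adjusted p = 1.36e-09). In P_ES50 it was 74.4, 78.4 and 71.1 FPKM, overlapping PE alone, with a log2 difference of -0.05 and a 95% confidence interval from -0.14 to 0.04. Plk2 therefore had the widest range of the 8 genes, 4.43-fold between P_ES10 and ES50. Scaled to total reads the P_ES50 value fell below PE alone, by 0.94 on the log2 scale.

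Btg2 encodes an antiproliferative protein that recruits the CCR4-NOT deadenylase to mRNAs and lowers cyclin D1 in some cells. The gene, ENSRNOG00000003300, lies on chromosome 13 from 50913180 to 50916982 on the minus strand. It measured 34.7, 33.2 and 31.7 FPKM in NC and 34.1, 33.2 and 31.3 in ES10, which overlap (log2 difference -0.01, 95% confidence interval -0.16 to 0.13). It was lower in ES50, at 21.3, 20.3 and 20.1 FPKM (-0.66 ± 0.07, adjusted p = 2.52e-07). With PE alone Btg2 was 29.5, 29.0 and 28.5 FPKM, below every NC library but not called (-0.19 ± 0.07, adjusted p = 0.0923). It rose to 35.5, 34.9 and 35.6 FPKM in P_ES10 (0.28 ± 0.07, adjusted p = 0.00704), a call lost with reads thinned to equal depth (0.20, adjusted p = 0.216). P_ES50 spread widest, at 26.3, 29.6 and 23.1 FPKM, and did not pass the test against PE alone (-0.14 ± 0.07, adjusted p = 0.137), but passed it without P_ES50 replicate 2 (-0.22, adjusted p = 0.0127).

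Mdm2, the ligase that marks p53 for destruction, and Ccng1, cyclin G1, which recruits a phosphatase to Mdm2, are the members that feed back on p53. Mdm2, ENSRNOG00000006304, lies on chromosome 7 from 60719066 to 60743328 on the minus strand, and Ccng1, ENSRNOG00000003256, on chromosome 10 from 25903911 to 25910325 on the minus strand. Mdm2 stood at 54.7, 54.3 and 58.2 FPKM in NC, 67.9, 67.6 and 68.4 in ES10 and 24.6, 26.1 and 22.8 in ES50. As for Plk2, 10 pulses lay above and 50 pulses below every untreated library, with log2 changes of 0.28 ± 0.05 (adjusted p = 0.00160) and -1.16 ± 0.05 (adjusted p = 7.59e-12). The first call was lost with reads thinned to equal depth (0.18, adjusted p = 0.246). PE alone left Mdm2 at 51.4, 55.6 and 55.8 FPKM, overlapping NC (-0.04, 95% confidence interval -0.14 to 0.06). P_ES10 held 74.6, 75.4 and 78.0 FPKM, the highest group, 0.48 ± 0.05 above PE alone (adjusted p = 4.11e-06). P_ES50 held 49.6, 51.2 and 52.0 FPKM and was not called against PE alone (-0.09 ± 0.05, adjusted p = 0.202).

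On the deposited scale Ccng1 went against the other 7 genes after 50 pulses without PE. It measured 58.5, 59.7 and 57.1 FPKM in NC, 69.0, 68.4 and 66.7 in ES10 and 121, 127 and 129 in ES50, where each library held 870 to 1081 reads of it. Both pulsed groups lay above every NC library, by 0.22 ± 0.03 (adjusted p = 8.66e-04) and 1.09 ± 0.03 (adjusted p = 2.71e-13). The direction after 50 pulses depends on the scaling: on the deposited scale Ccng1 rose, while relative to total reads it fell by 2.38 on the log2 scale, the smallest fall of the 8. The 10-pulse call was lost when scaled to total reads (0.18, adjusted p = 0.0680) and with reads thinned to equal depth (0.09, adjusted p = 0.492). With PE alone Ccng1 was 46.2, 46.4 and 47.8 FPKM (-0.31 ± 0.03, adjusted p = 4.40e-05), below every NC library. It was 59.5, 58.6 and 60.8 FPKM in P_ES10 and 51.0, 52.5 and 50.5 in P_ES50, rises over PE alone of 0.34 ± 0.03 (adjusted p = 3.82e-06) and 0.13 ± 0.03 (adjusted p = 0.0101). The second turned to -0.76 when scaled to total reads.

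Fas, the cell surface death receptor, was the lowest of the 8 and the 1 that PE raised. The gene, ENSRNOG00000019142, lies on chromosome 1 from 252589785 to 252624790 on the plus strand. It measured 5.89, 5.55 and 5.50 FPKM in NC and 8.52, 8.22 and 8.62 in P, a rise of 0.51 ± 0.08 (adjusted p = 7.85e-04) with no overlap. That call was lost with reads thinned to equal depth (0.38, adjusted p = 0.413). Neither set of 10 pulses gave a call: ES10 held 5.04, 5.23 and 4.55 FPKM (-0.16 ± 0.08, adjusted p = 0.265) and P_ES10 held 7.98, 7.37 and 7.15 (-0.15 ± 0.08 against PE alone, adjusted p = 0.186). Fas fell with 50 pulses in both settings. ES50 held 2.29, 2.53 and 2.67 FPKM (-0.93 ± 0.08, adjusted p = 3.44e-08), which rest on only 13 to 17 reads per library, and P_ES50 held 4.89, 4.32 and 3.89 FPKM (-0.82 ± 0.08 against PE alone, adjusted p = 2.12e-06).

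Sesn2 encodes sestrin 2, which restrains mTORC1 when leucine or energy is short and limits oxidative stress, and which ATF4 induces as well as p53. The gene, ENSRNOG00000042785, lies on chromosome 5 from 150684133 to 150704117 on the minus strand. It measured 18.2, 16.6 and 18.03 FPKM in NC and 16.9, 17.04 and 16.4 in ES10, which overlap (-0.07, 95% confidence interval -0.31 to 0.18). The ES50 libraries scattered at 14.8, 11.9 and 8.88 FPKM, all below NC (-0.56 ± 0.11, adjusted p = 4.35e-04). PE alone lowered it to 12.6, 11.8 and 12 FPKM (-0.50 ± 0.11, adjusted p = 0.0120), a call lost without NC replicate 1 (adjusted p = 0.0527) or P replicate 2 (adjusted p = 0.05003).

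After PE, Sesn2 was higher with pulses than without. P_ES10 held 16.1, 15.8 and 15.3 FPKM and P_ES50 21.4, 19.3 and 21.6, the highest group, and neither overlapped PE alone. The log2 change over PE alone was 0.35 ± 0.11 with 10 pulses (adjusted p = 0.0386) and 0.73 ± 0.11 with 50 (adjusted p = 2.44e-04). The first was lost when any 1 of its 6 libraries was left out (adjusted p between 0.0693 and 0.110). The second turned to -0.12 when scaled to total reads.

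Against 10 pulses, 50 pulses lowered 7 of the 8 and raised Ccng1 without PE, where 41.3% of tested genes were lower and 33.0% higher. After PE, 50 pulses against 10 lowered 5 (Plk2, Mdm2, Fas, Btg2 and Ccng1) and raised 2 (Cdkn1a and Sesn2), at a background of 12.9% lower and 10.5% higher. The 5 falls ran from -0.97 ± 0.04 for Plk2 to -0.21 ± 0.03 for Ccng1. The rises of Cdkn1a and Sesn2 were 0.16 ± 0.05 and 0.38 ± 0.11. The Sesn2 rise was lost in 5 of 6 leave-outs, all but P_ES50 replicate 2 (adjusted p between 0.0577 and 0.0856). Both rises turned to falls, of 0.65 and 0.39, when scaled to total reads. There all 8 genes were lower, as were 10348 of the 11917 tested genes.

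PE before 10 pulses changed little in the level reached. In P_ES10 versus ES10, Fas was higher (0.52 ± 0.08, adjusted p = 0.00317) and Ccng1 lower (-0.19 ± 0.03, adjusted p = 0.0101), where 0.688% of tested genes were higher and 1.12% lower. The Ccng1 call was lost in 4 of 6 leave-outs (without ES10 replicates 1 or 2 or P_ES10 replicates 1 or 2, adjusted p between 0.0542 and 0.0705). With reads thinned to equal depth the Fas and Ccng1 calls were lost (adjusted p = 0.444 and 0.313). With the ES50 libraries out of the fit Mdm2 was also called higher (0.16, adjusted p = 0.0185), beside 440 higher and 660 lower among all tested genes. After 50 pulses, cells with PE held more of 7 genes and less of Ccng1 than cells without, among 37.7% of tested genes higher and 31.9% lower. The largest of these differences were -1.27 ± 0.03 for Ccng1, 1.17 ± 0.05 for Gadd45a, 1.15 ± 0.04 for Plk2 and 1.03 ± 0.05 for Mdm2. Scaled to total reads all 8, Ccng1 included at 1.42, were higher with PE, as were 11107 of the 11917 tested genes.

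Whether PE altered the response to the pulses was tested as the difference between the 2 responses, each against its own control without pulses. For 10 pulses the response of Gadd45a was larger with PE by 0.58 ± 0.07 (adjusted p = 7.37e-04) and that of Plk2 by 0.38 ± 0.06 (adjusted p = 0.00635), 2 genes of 8 where 0.562% of tested genes had a larger and 0.344% a smaller response. The estimate was above 0 for all 8 genes, from 0.01 for Fas to 0.58 for Gadd45a, with a median of 0.25 beside -0.01 for all tested genes. Fitted without the ES50 libraries, 4 of the 8 were called, Cdkn1a (0.21, adjusted p = 0.0464) and Sesn2 (0.42, adjusted p = 0.00408) in addition. Over all tested genes that fit called 275 larger and 286 smaller responses, where the main fit called 67 and 41. The Plk2 call was lost when scaled to total reads (0.33, adjusted p = 0.0529). That of Gadd45a was lost with reads thinned to equal depth (0.64, adjusted p = 0.119). PE alone had lowered Gadd45a and Plk2 (-0.66 and -0.27), while the levels of these 2 genes in P_ES10 and ES10 differed by -0.08 and 0.11 and were not called.

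For 50 pulses the responses with and without PE differed in 7 of the 8 genes, all but Fas, with 6 more positive and Ccng1 more negative with PE, where 31.1% of tested genes had a more positive and 27.9% a more negative response. Gadd45a, Sesn2 and Cdkn1a fell with 50 pulses alone and rose with 50 pulses after PE, with differences of 1.83 ± 0.07, 1.29 ± 0.16 and 0.71 ± 0.08. Plk2 and Mdm2 fell without PE and did not pass the test after PE, with differences of 1.41 ± 0.06 and 1.07 ± 0.07. For Fas the responses were -0.93 and -0.82, and their difference of 0.11 had a 95% confidence interval from -0.13 to 0.34. These differences set groups with 91.4% to 92.9% and 46.7% to 49.6% of reads on mitochondrial genes against each other. Scaled to total reads all 8 differences, Ccng1 included at 1.62, were positive, as were those called for 10572 of the 11917 tested genes.

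**Figure D3:**
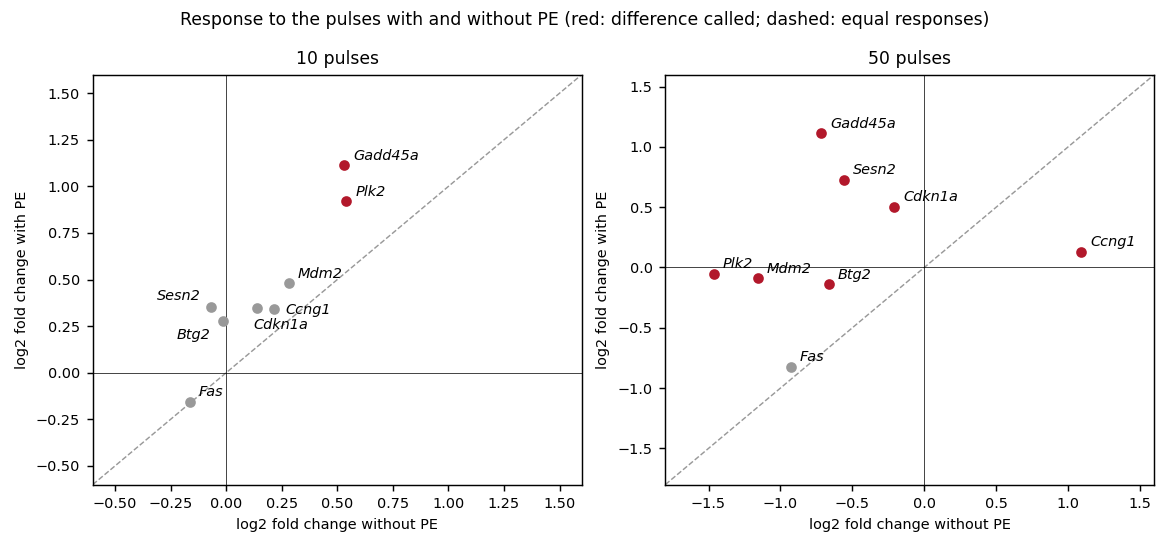
Log2 fold change after 10 pulses (left) or 50 pulses (right) without PE (horizontal axes) and with PE (vertical axes), 1 point per gene. Points above the dashed line of equal responses had the more positive response with PE: Gadd45a and Plk2 are called at 10 pulses, and at 50 pulses Ccng1 lies below the line by 0.96, or above it by 1.62 when scaled to total reads.

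Of 12 listed regulators of the pathway, 11 were tested. By limma 0 of the 11 were called in ES10 versus NC, 3 having an unadjusted p under 0.05, 2 higher and 1 lower, and the median of the list was 0.01. Of all tested genes 6.36% were called higher and 2.21% lower in ES10 versus NC. In P_ES10 versus P, Hipk2, a kinase that phosphorylates p53, rose from 1.93 to 3.55 FPKM (0.63 ± 0.11, adjusted p = 9.34e-04), Ppm1d, the p53-induced phosphatase Wip1, rose from 4.24 to 6.81 (0.58 ± 0.12, adjusted p = 0.00339) and Kat5, an acetyltransferase of p53, fell (-0.27 ± 0.07, adjusted p = 0.0128). In that comparison 13.2% of all tested genes were higher and 9.66% lower. The Kat5 call was lost without P replicate 1, P replicate 3 or P_ES10 replicate 3, with adjusted p between 0.0541 and 0.0560. PE alone had lowered Hipk2 from 4.38 to 1.93 FPKM (-0.87 ± 0.11, adjusted p = 2.25e-04), the 1 call of the list there. Of all tested genes 4.81% were lower and 4.72% higher with PE alone. With reads thinned to equal depth the list had 0 calls in P versus NC and 0 in P_ES10 versus P by limma, with 2 and 5 genes at an unadjusted p under 0.05, so the calls of Hipk2, Ppm1d and Kat5 were lost. Calls over all tested genes went from 1136 to 309 and from 2724 to 1208 in the same order. In ES50 versus NC, 9 of the 11 fell and none rose, among 40.1% of all tested genes lower and 31.9% higher. Scaled to total reads all 11 were lower, as were 11471 of the 11917 tested genes. On the deposited scale Hipk2 stood at -1.34 ± 0.11 and Usp7, which deubiquitinates Mdm2 and p53, at -0.69 ± 0.08.

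Some other known p53 targets were called after 10 pulses, in counts too small to say much by themselves. Of 20 tested genes of arrest, metabolism and repair, 2 rose and none fell in ES10 versus NC, and 4 rose and 1 fell in P_ES10 versus P, with medians of 0.05 and 0.23. Over all tested genes 6.36% were higher and 2.21% lower in the first comparison, and 13.2% and 9.66% in the second. Scaled to reads outside the mitochondrial genome, the second count became 2 higher and 1 lower. Epha2, an ephrin receptor, rose from 23.6 to 37.9 FPKM without PE (0.66 ± 0.06, adjusted p = 2.95e-06) and from 19.8 to 41.5 with PE (1.03 ± 0.06, adjusted p = 5.50e-09). Pcna, the sliding clamp of DNA replication and repair, rose by 0.35 ± 0.05 and 0.53 ± 0.05. Of 11 tested apoptosis targets, 1 rose and 1 fell in ES10 versus NC, and 3 rose and 1 fell in P_ES10 versus P, which became 1 higher and 2 lower when scaled to reads outside the mitochondrial genome. With thinned reads limma called 0 of the 11 in ES10 versus NC, where 2 had an unadjusted p under 0.05, and 2 in P_ES10 versus P. Over all tested genes thinned reads gave 278 and 1208 calls. Pmaip1, the BH3-only protein Noxa, was the riser in both, at 15.3 to 19.97 FPKM without PE (0.37 ± 0.07, adjusted p = 0.00339) and 14.2 to 22.6 with PE (0.64 ± 0.07, adjusted p = 7.72e-06).

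With 50 pulses the other targets moved in both directions, as did all tested genes, of which 31.9% were higher and 40.1% lower in ES50 versus NC. In ES50 versus NC, 3 of the 20 genes of arrest, metabolism and repair rose and 12 fell, led by Epha2 at -2.12 ± 0.06, with a median of -0.55. Of the 11 apoptosis targets 4 rose and 6 fell, with Pmaip1 at 1.505 ± 0.07, Rps27l at 1.41 ± 0.06 and Apaf1, the caspase-activating scaffold, at -1.44 ± 0.07. None rose in either list when scaled to total reads, while 19 of the 20 and all 11 fell, as did 11471 of the 11917 tested genes. Like Ccng1, Pmaip1 and Rps27l turned to falls, of 1.83 and 2.10, when scaled to total reads. In P_ES50 versus P, 5 of the 20 rose and 2 fell, and 2 of the 11 apoptosis targets rose and 1 fell, beside 14.1% of all tested genes higher and 14.2% lower. The counts became 2 higher and 15 lower, and 0 higher and 11 lower, when scaled to total reads. Over all tested genes 90 were then higher and 10461 lower. Gdf15, a secreted stress cytokine, went from 0.839 ± 0.248 FPKM to 9.82 ± 1.21 (2.56 ± 0.18, adjusted p = 8.18e-08) and was still 2.07 higher when scaled to total reads. Epha2 rose by 0.75 ± 0.06 and Bax, the pore-forming effector of apoptosis, by 0.37 ± 0.06, both of which turned to falls when scaled to total reads, of 0.12 and 0.52. Xpc, which recognises damaged DNA, was at -0.78 ± 0.08.

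**Figure D4:**
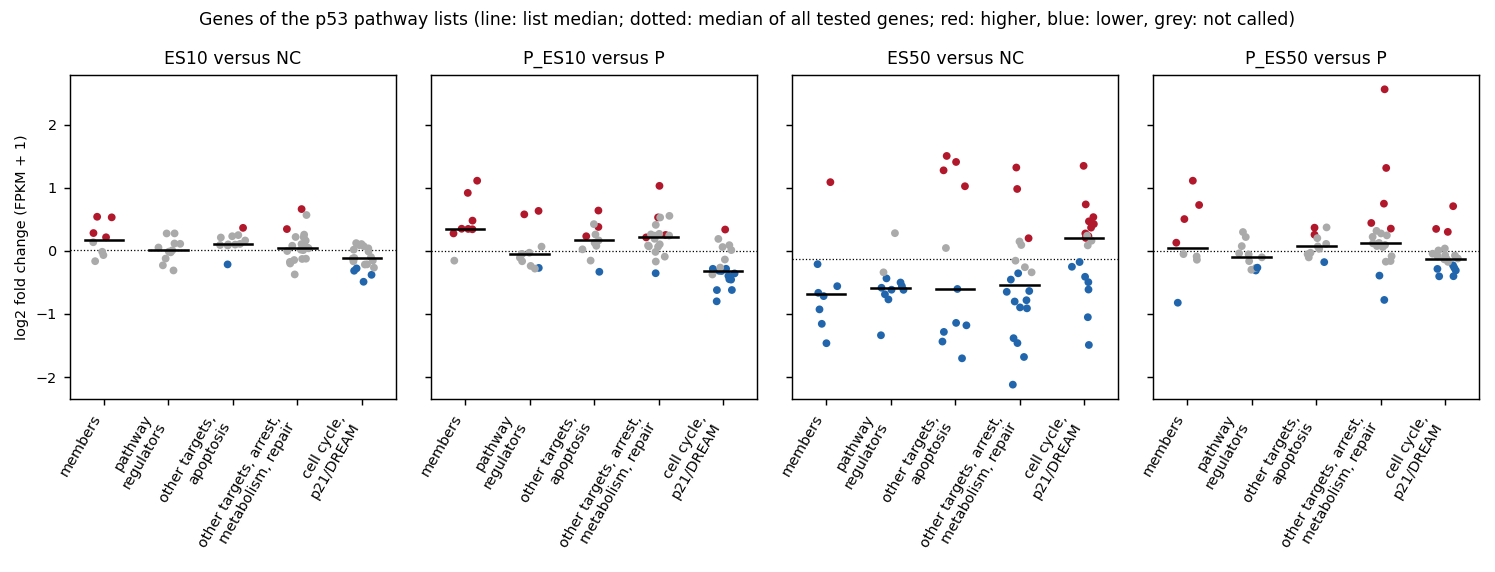
Log2 fold change of FPKM + 1 (vertical axis) for the tested genes of the 8 members and 4 further lists (horizontal axes) in 4 comparisons, with points for genes, solid lines for list medians and dotted lines for the median of all tested genes. In P_ES10 versus P the median of the 8 members is 0.35 and that of the cell cycle genes -0.32, while in ES50 versus NC the members' median is -0.69 against -0.13 for all tested genes.

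The cell cycle genes that p21 is known to lower through RB and the DREAM repressor complex moved mainly down after 10 pulses, where they moved. Of 19 tested, 4 fell and none rose in ES10 versus NC, and 11 fell and 1 rose in P_ES10 versus P, with medians of -0.12 and -0.32 and backgrounds of 2.21% and 9.66% of tested genes lower. Cdc20, the activator of the anaphase-promoting complex, fell from 22.7 to 15.9 FPKM without PE (-0.49 ± 0.10, adjusted p = 0.00702) and from 28.8 to 16.1 with PE (-0.80 ± 0.10, adjusted p = 4.32e-05). Kif20a, a kinesin of cytokinesis, changed by -0.31 ± 0.07 and -0.62 ± 0.07. Plk1, the mitotic paralog of Plk2, fell from 45.0 to 28.9 FPKM in P_ES10 versus P (-0.62 ± 0.09, adjusted p = 1.21e-04) while Plk2 rose. PE alone raised 3 of the 19 and lowered none, at a background of 4.72% of tested genes higher, Cdk1 (0.27 ± 0.04) and Kif20a (0.32 ± 0.07) among them. That count depended on the setting: by limma it was 0 with reads thinned to equal depth, where 7 had an unadjusted p under 0.05, 13 scaled to total reads and 12 without the ES50 libraries. Over all tested genes 563 were higher in the main fit, 135 with thinned reads, 2431 scaled to total reads and 1641 without ES50. The 4 falls in ES10 versus NC became 1 call with thinned reads, where 6 had an unadjusted p under 0.05, 8 scaled to reads outside the mitochondrial genome and 9 without the ES50 libraries. The lower genes among all tested went from 263 to 133, 620 and 875 in the same order. Thinned reads gave 8 calls in P_ES10 versus P, beside 1208 calls over all tested genes. Without the ES50 libraries 14 fell there, beside 2218 lower genes among all tested. In P_ES50 versus P, 3 rose and 6 fell, where 14.1% of tested genes were higher and 14.2% lower. In P_ES50 versus P_ES10, 10 rose and 1 fell, at a background of 10.5% higher and 12.9% lower. All 19 were lower in P_ES50 versus P_ES10 when scaled to total reads, as were 10348 of the 11917 tested genes. On total reads Cdkn1a, highest in P_ES50 on the deposited scale, was lower in P_ES50 than in NC, ES10, P and P_ES10.

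The kinases, cyclins and clamp that p21 binds moved in both directions after 10 pulses. Of 11, all tested, 1 rose and 1 fell in ES10 versus NC and 2 rose and 3 fell in P_ES10 versus P. Counts this small say little by themselves. Of all tested genes, 6.36% were higher and 2.21% lower in the first comparison and 13.2% and 9.66% in the second. Ccnd1, cyclin D1, fell in both, from 148 to 113 FPKM (-0.38 ± 0.04, adjusted p = 1.19e-05) and from 151 to 107 (-0.49 ± 0.04, adjusted p = 2.53e-07), and also in P_ES50 versus P (-0.37 ± 0.04). In ES50 versus NC, 8 rose and 1 fell on the deposited scale, where 31.9% of tested genes were higher and 40.1% lower. Ccnd3 stood at 2.05 ± 0.04 and Cdk4 at 1.30 ± 0.05. Scaled to total reads all 11 were lower, as were 11471 of the 11917 tested genes. Ccnd3 and Cdk4 then turned to falls, of 1.46 and 2.18.

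Paralogs of the members moved with them in some comparisons and apart from them in others. Of 15 tested, 1 rose and 1 fell in ES10 versus NC, and 2 rose and 6 fell in P_ES50 versus P. The shares over all tested genes were 6.36% higher and 2.21% lower in the first comparison, and 14.1% and 14.2% in the second. Gadd45b, the paralog of Gadd45a that NF-κB and TGF-β induce, stood at 198 ± 3.60 FPKM in NC, 229 ± 1.28 in ES10, 241 ± 15.8 in ES50, 227 ± 8.09 in P, 317 ± 8.39 in P_ES10 and 124 ± 4.57 in P_ES50. It rose with Gadd45a in P_ES10 versus P (0.48 ± 0.04, adjusted p = 1.47e-06) but fell in P_ES50 versus P (-0.87 ± 0.04, adjusted p = 1.34e-09), where Gadd45a rose. Gadd45b was also higher with PE alone (0.20 ± 0.04), where Gadd45a fell. Gadd45g went from 31.9 to 105 FPKM in ES50 versus NC (1.68 ± 0.08), which turned to -1.77 when scaled to total reads, and from 40.3 to 22.01 in P_ES50 versus P (-0.84 ± 0.08). Plk3, a stress-induced paralog of Plk2, rose from 6.83 to 18.5 FPKM in P_ES50 versus P (1.31 ± 0.17, adjusted p = 3.10e-05), where Plk2 was not called.

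The patterns of the 8 genes over the 6 group means of log2(FPKM + 1) are described by Pearson correlations, without a test, since the 6 means share the libraries and the depth differences already given. Plk2 and Mdm2 followed each other closely (0.98), Plk2 and Btg2 (0.96) and Mdm2 and Btg2 (0.95) nearly so, and Cdkn1a went with Gadd45a (0.95) and Sesn2 (0.93). On the deposited scale, where Ccng1 stood highest in ES50, it was negative with each of the other 7. Scaled to total reads, Ccng1 and the other 7 were each lowest in ES50. Correlations were not computed on that scale. Among tested genes outside the set that carry a gene symbol rather than an identifier, the most similar in pattern to Plk2 were Tgfb2 (0.999), Ist1 (0.997) and Fam76a (0.996). Those for Mdm2 were Xirp1 (0.999), Neb and Ralgapa1 (0.998 each). Those for Ccng1 were Fdps, Tspyl1 (1.00 each) and Gas6 (0.997). For Cdkn1a they were Wwc3 (0.994), Zfp36 (0.986) and Psmd11 (0.979). For Gadd45a they were Kpna1 (0.994), Ccdc117 and Taok1 (0.993 each). For Sesn2 they were Adprm (0.994), Ddit3 (0.981), the stress factor CHOP, and Yars (0.979), and for Btg2 its own family member Tob1 (0.995), Hsd17b13 (0.992) and Actbl2 (0.991). For Fas they were Rmnd1, Stx16 and 1 of the 424 genes that carry the symbol 7SK (0.994 each).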

How the data were processed

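Messenger RNA of H9C2 cells was captured on poly-T beads and primed with random hexamers, per the labels' protocols, in 18 libraries of 6 groups of 3. The authors deposited FPKM per gene on the Rnor 6.0 build, per the submitters' processing notes. The aligner, counting tool, annotation release and strand setting were not given in the sources used here, so reads of overlapping antisense genes may be included. FPKM times gene length gave whole reads for 100% of values within 0.01, and these reads gave depth and the other scalings.

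All 6 group means were fitted on log2(FPKM + 1) with limma 3.58.1 in R 4.3.3 (empirical Bayes with trend) over 11917 genes whose FPKM reached 1 in 3 or more libraries. Adjusted p is Benjamini-Hochberg over all genes within a comparison, called under 0.05, and 11 comparisons were made. Fold changes on this scale understate those of low genes. The script was tested on simulated data. Alternatives were a pseudocount of 0.1, no filter, scaling to total or to non-mitochondrial reads, reads thinned to 1230554 per library, only the groups compared, a replicate block, each library left out and, added after seeing the data, no ES50 libraries. The members and lists were chosen with earlier results of these data known. The text names the 8 members, up to 4 genes of smallest adjusted p per list and comparison, and for each member the 3 genes of most similar pattern. The last were taken among genes with a proper symbol, leaving out identifiers and names such as LOC, RGD or AABR. Of markers of other cell types, 1 of 4 immune genes and none of 3 endothelial genes in the table passed the filter.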

Additional observations from a re-analysis of the deposited data

Results flagged for a closer look

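The response to the pulses differed with and without PE, by a test of the difference itself in limma, for 7 members at 50 pulses and 2 at 10. Over all tested genes 31.1% had a more positive and 27.9% a more negative response at 50 pulses. At 10 pulses these shares were 0.562% and 0.344%. At 10 pulses the response with PE exceeded that without by 0.5806 for Gadd45a and 0.3781 for Plk2 on the log2 scale. At 50 pulses the difference was 1.829 for Gadd45a, 1.412 for Plk2, 1.287 for Sesn2, 1.068 for Mdm2, 0.7144 for Cdkn1a and 0.5238 for Btg2. For Ccng1 it was -0.9595 at 50 pulses, and 1.622 when scaled to total reads. For Gadd45a all 3 libraries of ES50 lay below NC and all 3 of P_ES50 above P, and the same held for Cdkn1a and Sesn2. The share of all tested genes with this pattern was not counted. The part of the mitochondrial read share, 92.1% ± 0.728 in ES50 and 48.6% ± 1.66 in P_ES50 (SD, n = 3), in the 50-pulse differences was not tested.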

How the results depend on the processing

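Over the 88 member results, a pseudocount of 0.1 kept direction and call in 88, no filter on low values in 86 and scaling to non-mitochondrial reads in 85. With reads thinned to equal depth 16 calls were lost and none was gained: 1 member was called in ES10 versus NC, 2 in P_ES50 versus P_ES10, 1 in the interaction of PE and 10 pulses and 0 by limma in P_ES10 versus ES10, where 3 had an unadjusted p under 0.05. Calls over all tested genes went from 1021, 2784, 108 and 215 to 278, 1249, 26 and 17 in the same order. Scaled to total reads, 1 member was called in P_ES10 versus ES10 and 1 in that interaction, beside 478 and 265 calls over all tested genes. The interaction had 5 called members with only its own groups fitted and 4 without the ES50 libraries, beside 693 and 561 calls over all tested genes. Members called in P_ES10 versus ES10 ranged from 1 to 2 when a library was left out.

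Scaled to total reads these log2 changes turned. Ccng1 became -2.379 and -2.558 in ES50 against NC and ES10, -0.7568 in P_ES50 versus P, 1.417 in P_ES50 versus ES50 and 1.622 in the interaction of PE and 50 pulses. Cdkn1a became -0.3896 and -0.6469 in P_ES50 against P and P_ES10 and 0.04716 in P_ES10 versus ES10. Sesn2 became -0.1216 and -0.3937 in P_ES50 against P and P_ES10, Mdm2 0.07284 in P versus NC and Fas -0.04046 in the interaction of PE and 10 pulses. In ES50 versus NC, Rps27l became -2.099, Pmaip1 -1.827, Gadd45g -1.766, Ccnd3 -1.463 and Cdk4 -2.178, and in P_ES50 versus P Epha2 became -0.1201 and Bax -0.5193.

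Uncalled differences near 0 also changed sign. Gadd45a in P_ES50 versus P_ES10 was 0.05622 with non-mitochondrial scaling, 0.1064 thinned and -0.03063 to 0.05841 with a library left out. Cdkn1a in P_ES10 versus ES10 was 8.476e-04 with non-mitochondrial scaling and 1.574e-04 thinned. With a library left out, Btg2 in ES10 versus NC ranged from -0.04495 to 0.01867 and Fas in the interaction of PE and 10 pulses from -0.03938 to 0.04367.

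The replicate numbers do not pair the samples: 1 of 27 same-numbered pairs had deviations correlated over 0.1, the range being -0.0879 to 0.101. Fitted as a block, they left 6 members called in P_ES50 versus P_ES10 in place of 7, Cdkn1a being lost, and changed no other member call. Depth limits ES50 most, where Fas rests on 13 to 17 reads per library.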
